A study of Mus musculus with 6 samples.

Results

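The transcripts described here are long intergenic noncoding RNA (lincRNA) exons, each read by an array probe whose name begins with MM9LINCRNAEXON. All probes of that name were taken, 83 of the 60915 on the array outside its controls and negative probes. The name gives an exon number and a strand, plus or minus, and the 83 probes stand for 71 exon numbers, 12 of which have a probe for each strand. They are called below by number and strand, so that 11561- is MM9LINCRNAEXON11561-_P1. Each was spotted 1 time per array, and no gene, genomic position or probe sequence was available here to place them.

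RNA came from male mice aged 8 weeks, strain not given in the sources used here. One group had a sham operation and the other had the middle cerebral artery blocked for a time and reopened (tMCAO), which models ischemic stroke, with 3 single-colour arrays in each from experiments described as independent. The tMCAO mice were killed 12 h after blood flow was restored. The protocol text, the same for all arrays, names ischemic cortex as the source of RNA, while every array is labelled as brain and the sham arrays carry no time point. RNA was labelled along whole transcripts by random priming after ribosomal RNA removal. No probe in the files is paired with any of the marker genes chosen for neurons, glia, vessels, neutrophils or cortex, so the labelled tissue could not be checked. In tissue samples of this kind, fewer cells of a type and less RNA per cell cannot be told apart.

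LincRNAs are transcribed from DNA between protein-coding genes, are often spliced and polyadenylated, and do not encode proteins. Many are present at low levels and in few cell types, and brain is among the tissues richest in them. Some act on transcription or on chromatin, but most have no assigned function. Exon probes such as these come from catalogues of transcribed regions, in which the direction of transcription can be uncertain, so both strands of an exon may be probed.

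The arrays lay on 2 slides, as their headers give them. Slide 1 held replicates 1 and 2 of both groups, and slide 2 held replicate 3 of both. The 75th percentile of signal ranged from 555.5 to 705.5 intensity units in sham and was 934.6, 918.6 and 537.2 in tMCAO replicates 1 to 3. Levels below are log2 signals relative to that percentile of the same array, and differences are tMCAO minus sham on the same log2 scale. Probes are ranked by level and subtracted within arrays below, but such values describe signal and are not read as relative RNA amounts. With 3 arrays per group, precision is limited.

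A lincRNA exon probe was called detected if it was well above background, by the scanner software's own mark, on at least 3 of the 6 arrays, and 42 of the 83 (50.6%) were. That share was 35.6% among the 649 probes named mouselincRNA, 32.6% among the 1104 named humanlincRNA and 73.9% among the 59064 design-code probes, and these shares were not tested against each other. Detection was close to all or none: 35 lincRNA exon probes were above background on every array and 35 on no array. Sham arrays 1 to 3 had 38, 39 and 42 of these probes above background and tMCAO arrays 1 to 3 had 42, 42 and 41, so the groups overlapped. Just inside the limit lay 11561-, 10495- and 11661-, with 3 arrays each, and just outside it lay 11009-, with 2.

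**Figure D1:**
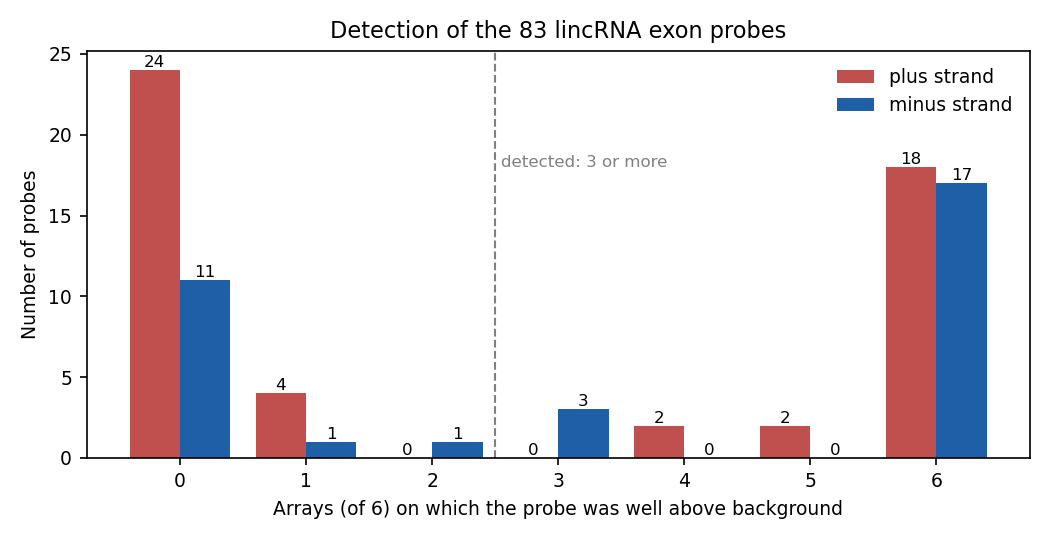
Number of lincRNA exon probes (y axis) by the number of the 6 arrays on which the probe was well above background (x axis), with plus-strand probes in red and minus-strand probes in blue. Most probes sit at 0 or 6 arrays, and the dashed line marks the limit for detection. Spots with an outlier mark are taken as not above background.

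Of the 41 probes that were not detected, 15 lay on all 6 arrays at the lowest value that the array's processed signal takes, 5.30 to 7.45 intensity units, and 12 lay there on some arrays. The highest signal of any of the 41 was 49.3 units, for 11661+ on tMCAO replicate 1. The array's own negative probes give a background for this mark. There were 15 of them, 13 of which were marked above background on 16 of 1560 spots, whereas the other 2 were marked on 120 of 120 spots each.

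Minus-strand probes were detected in 20 of 33 cases (60.6%) and plus-strand probes in 22 of 50 (44.0%). Among the 12 exons probed on both strands, 4 gave signal on both, 4 on the minus strand alone, 1 on the plus strand alone and 3 on neither. For exon 11569, for example, the minus-strand probe was above background on all 6 arrays, and the plus-strand probe ranged from 5.88 to 15.9 units and was above background on none.

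After tMCAO, 2 lincRNA exon probes rose, 1 of them (11561-) tested only through its tMCAO arrays, and none fell. Of the 42 detected probes, 41 were tested, and 2 (4.88%) were higher and 0 lower (limma, adjusted p under 0.05 over all 44288 tested probes). Over all tested probes 1.24% were higher, 0.187% lower and 1.42% either. The called share was 0.433% for mouselincRNA and 0.279% for humanlincRNA probes, with 1 probe called in each, so these shares rest on 1 or 2 probes and were not tested against each other. With signal required on all 6 arrays, 11561- was not tested and 1 of 35 lincRNA exon probes was higher. Under that rule 447 of 40893 tested probes were higher over the whole array. At an unadjusted p under 0.05, 4 of the 41 lincRNA exon probes lay above sham and 4 below. Of all 44288 tested probes, 3766 lay above and 4164 below at that limit. In 4 lincRNA exon probes every tMCAO array exceeded every sham array, and in 4 the reverse held (9.76% each). Among all tested probes these shares were 11.6% and 13.1%, close to those of the lincRNA exons.

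**Figure D2:**
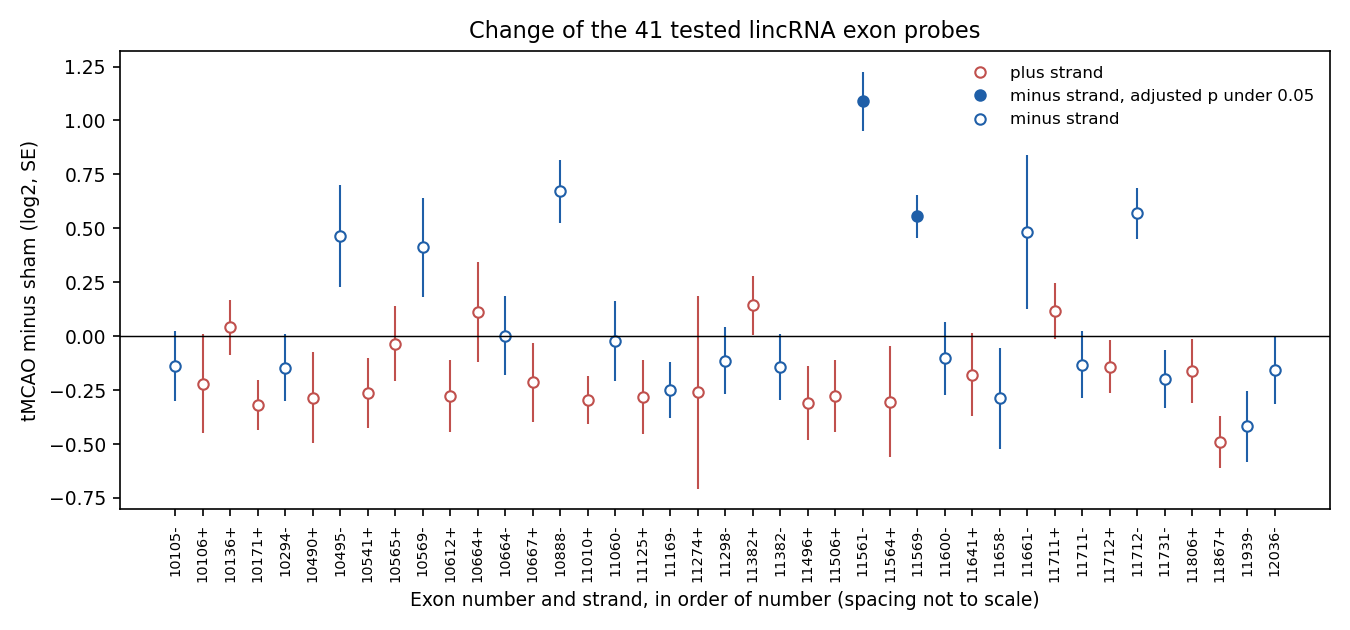
Difference between tMCAO and sham (log2, y axis, with its standard error as bars) for the 41 tested lincRNA exon probes in order of exon number (x axis). Filled points passed the test, and the 7 points above 0.4 are all minus-strand probes.

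Most tested lincRNA exon probes lay a little below sham. Over all 41 of them, called ones included, the median difference was -0.15 log2 units, with 29 below 0 and 12 above. The median was -0.05 over all tested probes, -0.24 for mouselincRNA and -0.24 for humanlincRNA probes. That of the lincRNA exon probes moved with single tMCAO arrays and with the background correction. It was -0.047 without tMCAO replicate 2 (-0.026 over all probes), -0.30 without tMCAO replicate 3 (-0.072) and -0.038 with normexp (-0.031). The differences ranged from -0.49 to 1.09. Their standard errors ranged from 0.10 to 0.45, with a median of 0.16 against 0.14 over all tested probes. Of the 41 differences, 15 were smaller than their own standard error, as were 18816 of the 44288 over all tested probes. The median SD between replicates was 0.14 in sham and 0.27 in tMCAO for the lincRNA exon probes. Over all tested probes it was 0.13 and 0.18.

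Both called probes bear close numbers and the same strand. The probe for exon 11561- measured 21.9, 18.7 and 28.8 intensity units in sham and 76.3, 73.1 and 39.4 in tMCAO. Its levels were -4.67, -5.02 and -4.62 in sham and -3.61, -3.65 and -3.77 in tMCAO, so every tMCAO array lay above every sham array. No sham array was well above background, so the sham values give only a bound and the probe was tested only because of its 3 tMCAO arrays. Against the lowest signal well above background on each sham array, it was at least 1.56-fold higher in tMCAO (limma, adjusted p = 0.0128 for the fitted difference of 1.09, which uses the sham signals as they stand). That bound holds for the 75th-percentile scaling alone: with normexp the fitted difference was 0.45 (limma, adjusted p = 0.0476), which is smaller than the bound. Within slide 1 alone, with 2 arrays per group, neither 11561- (limma, adjusted p = 0.0704) nor 11569- (0.132) passed the threshold.

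The probe for exon 11569- was above background on all 6 arrays, at 112.7, 122.7 and 146.6 units in sham and 271.8, 284.7 and 161.5 in tMCAO. Its levels were -2.30, -2.30 and -2.27 in sham and -1.78, -1.69 and -1.73 in tMCAO, with little spread in either group and no overlap. It rose by 0.56 ± 0.10 log2 units, or 1.47-fold (SE; limma, adjusted p = 0.0451). The difference was 0.57 on slide 1 and 0.53 on slide 2. With slide as a block the size was the same, but the probe missed the threshold (limma, adjusted p = 0.0615), while 11561- passed it (adjusted p = 0.0222). It also missed the threshold when any one of the 6 arrays was left out (limma, adjusted p = 0.0548 without tMCAO replicate 3 to 0.205 without sham replicate 1). The probe 11561- missed it without sham replicate 1 (limma, adjusted p = 0.0614) and without tMCAO replicate 1 (0.0766), and passed it without any other array.

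Between these exons in number lies 11564+, on the other strand, which was above background on all arrays. Its levels were -3.92, -3.0 and -3.26 in sham and -3.85, -3.93 and -3.31 in tMCAO, so the groups overlapped (difference -0.30 ± 0.26, SE; limma, adjusted p = 0.537). The spots of 11561- and 11569- lay in rows 113 and 101 and columns 50 and 156 of the array. Of the 9 and 11 tested probes spotted around them 0 were called, with median differences of -0.25 and 0.09. Over all tested probes 1.42% were called, so a count of 0 among so few neighbours is uninformative. An effect of spot position was not tested.

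**Figure D3:**
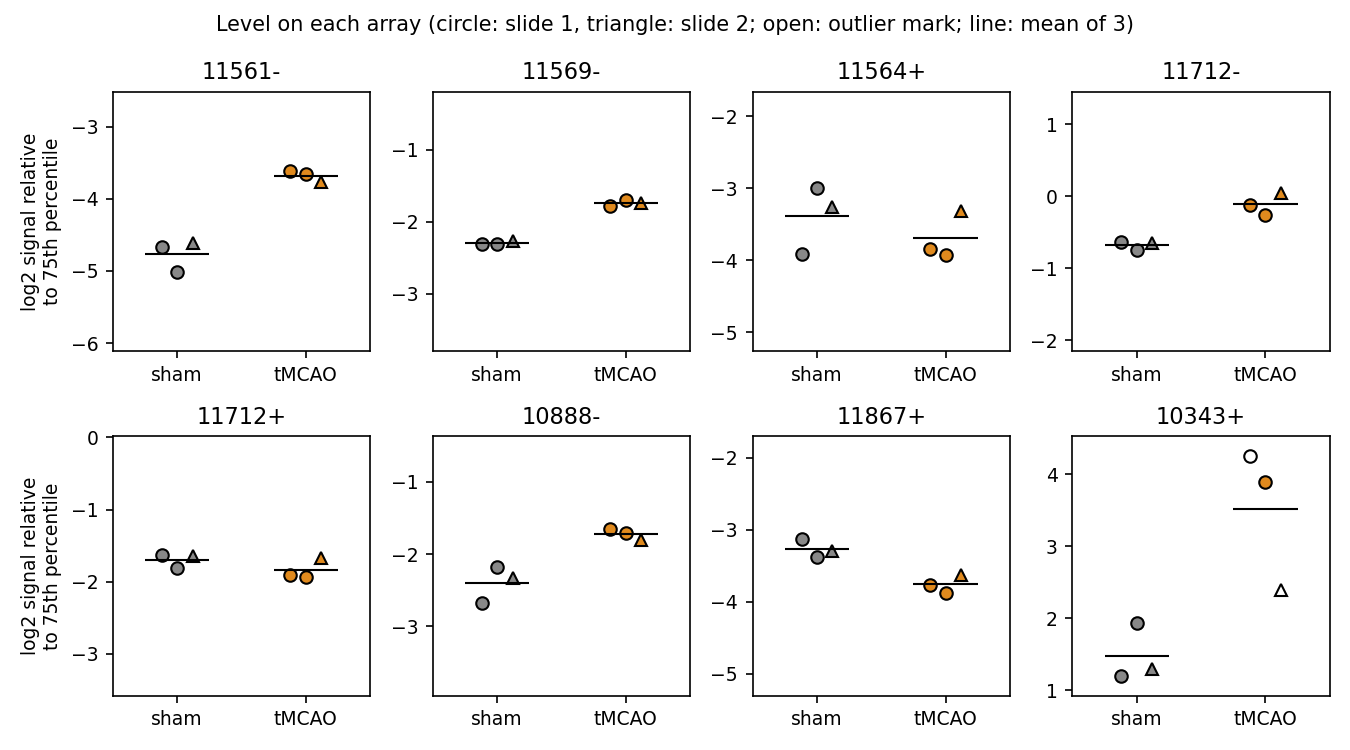
Level on each array (log2 signal relative to the 75th percentile, y axis, each panel spanning the same range) for 8 lincRNA exon probes in sham (grey) and tMCAO (orange). Circles are slide 1, triangles slide 2, open symbols spots with an outlier mark and lines the mean of 3 arrays; 11561-, 11569-, 11712- and 10888- show no overlap, with tMCAO above sham.

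Just outside the threshold lay 11712- and 10888-. The probe 11712- was at -0.63, -0.75 and -0.65 in sham and at -0.11, -0.25 and 0.05 in tMCAO, a difference of 0.57 ± 0.12 (SE; limma, adjusted p = 0.0696) with no overlap. It differed by 0.51 on slide 1 and 0.69 on slide 2. It passed the threshold with median centring (limma, adjusted p = 0.0313), with normexp background correction (0.034) and with a trended robust variance (0.037), within a range of 0.0313 to 0.23 over all alternatives. The probe 10888- was at -2.67, -2.19 and -2.33 in sham and at -1.66, -1.71 and -1.80 in tMCAO. The difference was 0.67 ± 0.15 (SE; limma, adjusted p = 0.0766), and 0.75 and 0.53 on slides 1 and 2. It passed only with the trended robust variance (0.0472), within 0.0472 to 0.238 over all alternatives.

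All 7 tested probes with a difference above 0.4 were minus-strand probes (7 of 20, 35.0%), whereas none of 21 tested plus-strand probes did, the highest being 11382+ at 0.14. Of the 7, 4 were above background on all 6 arrays, and 2 (11561- and 10495-) were above it on no sham array and so were tested only through tMCAO. The detected probe with the largest difference, 10343+, is a plus-strand probe that could not be tested and is described below, and 11711+ differed by 0.23 with its outlier-marked spot kept. The limit of 0.4 was chosen after the values were seen, and the difference between strands was not tested. At the same limit the minus and plus strands held 1.69% and 5.31% of mouselincRNA probes and 2.78% and 2.81% of humanlincRNA probes. Beside the 4 minus-strand probes above, the others were 11661- (0.48 ± 0.36), 10495- (0.46 ± 0.24) and 10569- (0.41 ± 0.23, all SE), with limma adjusted p of 0.483, 0.338 and 0.371. The groups overlapped for each of these 3. The probe 10495- was above background on each of the 3 tMCAO arrays but not in sham, at 25.5, 17.6 and 32.2 units in sham and 51.5, 38.4 and 37.3 in tMCAO, which bounds the ratio only at 1.08-fold or more. On 11661- the slides disagreed, with 1.05 on slide 1 and -0.64 on slide 2.

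Below sham, the largest differences did not pass the test. The probe 11867+ was at -3.13, -3.37 and -3.29 in sham and at -3.77, -3.87 and -3.62 in tMCAO, without overlap (difference -0.49 ± 0.12, SE; limma, adjusted p = 0.112). Its differences were -0.57 on slide 1 and -0.34 on slide 2. The probe 11939- differed by -0.42 ± 0.17, and by -0.61 and -0.03 on slides 1 and 2 (SE; limma, adjusted p = 0.252). For 10171+ the difference was -0.32 ± 0.12, with -0.30 and -0.36 on the slides (SE; limma, adjusted p = 0.227). For 11496+ it was -0.31 ± 0.17 (SE; limma, adjusted p = 0.373), with -0.57 on slide 1 and 0.21 on slide 2.

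Of the tested probes, the 3 with the highest mean level passed no threshold. The probe 11125+ was at 4.58, 4.56 and 4.81 in sham and at 4.02, 4.60 and 4.50 in tMCAO. For 10664+ the levels were 4.57, 4.34 and 4.31 in sham and 4.36, 5.07 and 4.12 in tMCAO. For 10490+ they were 1.93, 2.31 and 2.32 in sham and 2.06, 1.45 and 2.19 in tMCAO. The groups overlapped for all 3, with differences of -0.28 ± 0.17, 0.11 ± 0.23 and -0.29 ± 0.21 (SE; limma, adjusted p = 0.406, 0.818 and 0.48). The difference of 10664+ changed sign with quantile normalization (-0.012).

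The detected probe with the largest difference in level could not be tested. It was 10343+, which was singled out after its values were seen, and which by its unmarked spots is also among the 3 lincRNA exon probes of highest mean level. It measured 1269, 2311 and 1729 intensity units in sham and 17861, 13636 and 2821 in tMCAO, so every tMCAO array was above every sham array. On tMCAO replicates 1 and 3 the scanner software marked the spot as a nonuniformity outlier, which left 1 tMCAO value. With the marked spots kept, the levels were 1.19, 1.93 and 1.29 in sham and 4.26, 3.89 and 2.39 in tMCAO. The difference was then 2.04 ± 0.45, or 4.12-fold (SE; limma, adjusted p = 0.0853). It was 2.51 on slide 1 and 1.1 on slide 2, and 1.97 in the authors' normalized values (limma, adjusted p = 0.0707). It passed the threshold with slide as a block (limma, adjusted p = 0.0455) and without tMCAO replicate 3 (2.60 ± 0.24; adjusted p = 0.00992), and missed it without any other array, up to 0.281 without sham replicate 1. The spot lay in column 1 of the array, at its edge, and the part of this in the signal was not tested. The only other lincRNA exon spot with an outlier mark was that of 11711+ on tMCAO replicate 1.

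With numbers chained wherever neighbours were at most 10 apart, the 83 probes fell into 42 runs, 22 of which held 2 or more probes and 63 probes in all. Whether close numbers are neighbouring exons is not known from the names. In 15 of the 22 runs some probes were detected and others not, in 3 all were and in 4 none were. Among tested probes there were 18 pairs within a run, made from 22 probes. Their tMCAO minus sham differences lay a median of 0.39 log2 units apart, against 0.21 for the other 802 pairs, and had the same sign in 6 of 18 pairs (33.3%) against 58.1%. Pairs share probes, so these are descriptions. Without the run of exons 11561 to 11569 the median was 0.29 over 15 pairs. By strand, the median was 0.43 over the 6 pairs of different exons on the same strand and 0.45 over the 8 on opposite strands. The median over all close-numbered pairs moved with single arrays, to 0.20 without tMCAO replicate 2 and to 0.58 without tMCAO replicate 3, over 15 pairs each. It was 0.26 over the 9 pairs with numbers at most 1 apart, 0.29 with at most 3, 0.30 with at most 20, and 0.31 over the 10 pairs of probes above background on all 6 arrays. Whether the differences of close numbers lie further apart than those of other pairs is thus not settled by these values.

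Of the 4 exons tested on both strands, 11712 was the one whose gap between strands did not overlap between groups. For it, the minus-strand level minus the plus-strand level, within each array, was 1.00, 1.06 and 1.00 in sham and 1.79, 1.68 and 1.72 in tMCAO. The mean gap was 0.71 larger in tMCAO (exact permutation p = 0.1, two-sided, the smallest that 3 arrays against 3 can give), the minus strand at 0.57 above sham and the plus strand at -0.14 ± 0.12 (SE; limma, adjusted p = 0.544). The neighbouring number 11711 went otherwise, with differences of -0.13 ± 0.15 on the minus strand and 0.12 ± 0.13 on the plus strand, the latter from 2 tMCAO values (SE; limma, adjusted p = 0.657 and 0.643). Within each array 11711- minus 11712- averaged -3.04 ± 0.24 over the sham arrays and -3.74 ± 0.08 over the tMCAO arrays, without overlap (SD over 3 arrays; exact permutation p = 0.1). Because 11712- by itself did not overlap between groups, neither this gap nor that between the strands of 11712 is separate support. For exon 11382 the minus- and plus-strand differences were -0.14 ± 0.15 and 0.14 ± 0.14, and for exon 10664 they were 0.0029 ± 0.18 and 0.11 ± 0.23 (SE; limma, adjusted p from 0.585 to 0.994). Their within-array gaps overlapped between groups (exact permutation p = 0.3 and 0.9). The difference of 10664- was below 0 on slide 1 (-0.15) and above 0 on slide 2 (0.31). Of the 18 within-run gaps computed, 6 had no overlap between groups, and their share was not set beside that of other probe pairs. Of these, 3 held 11561- or 10495-, whose sham levels were not well above background. The rest all held 11712-, which by itself did not overlap between groups. With 3 arrays against 3, no gap could reach an adjusted p under 0.05.

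On slide 1, with 2 arrays per group, the median difference was -0.26 and 30 of 40 probes lay below 0, beside a median of -0.08 over all tested probes. On slide 2, with 1 array per group and hence no test, the median was 0.04, with 19 of 41 below 0, beside 0.01 over all probes. The sign differed between slides for 15 of the 40 probes measured on both. Relative to the sham mean, the median deviation of the 41 probes was -0.23 for tMCAO array 1, -0.34 for array 2 and 0.09 for array 3. Over all tested probes these medians were -0.05, -0.09 and 0.01. Arrays 1 and 2 of tMCAO also had the highest 75th percentiles of the 6 arrays, and the part of this in the deviations was not tested. Of the 7 minus-strand probes above 0.4, all but 11661- lay above 0 on both slides. These 7 were picked by their difference over the same 6 arrays, so their signs on the slides are not separate support. Of the 7, 2 were above background on no sham array.

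**Figure D4:**
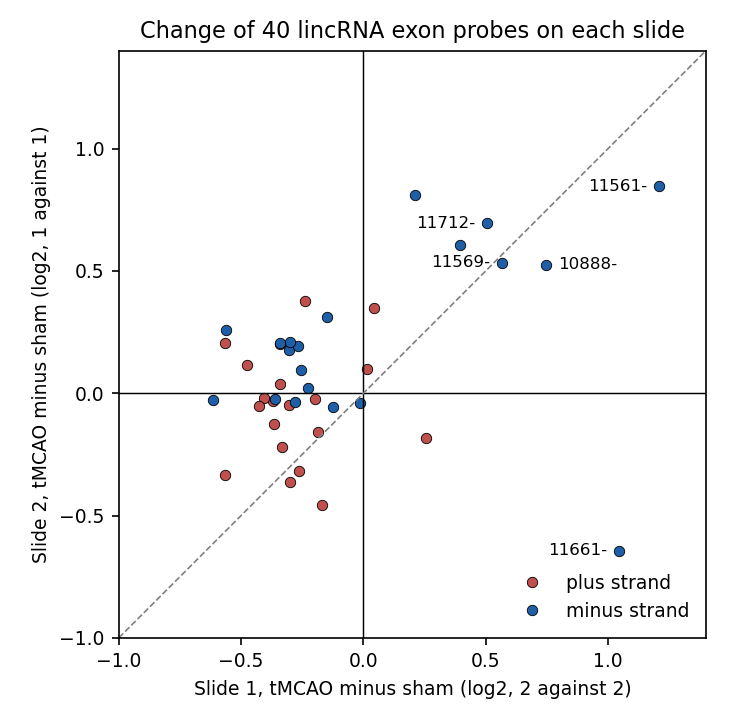
Difference between tMCAO and sham on slide 1 (log2, 2 arrays against 2, x axis) and on slide 2 (log2, 1 array against 1, y axis) for the 40 lincRNA exon probes with values on both slides, plus strand in red and minus strand in blue. Points on the dashed line differ equally on both slides. The probes 11561-, 11569-, 10888- and 11712- lie above 0 on both, as do 10495-, 10569-, 11382+ and 10136+. Most others lie below 0 on slide 1 and on either side of 0 on slide 2.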

How the data were processed

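Each array's spot intensity on a linear scale was deposited as scanner output; the submitters' processing notes name Agilent Feature Extraction 11.0.1.1, with the processed signal background-subtracted, per the file headers. Labelling used random priming after ribosomal RNA removal, per the labels' protocols. The authors also deposited log2 normalized values (column medians 6.895 to 6.897 over matched probes; method, scale factor and centring not given in the sources used here), used as an alternative.

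Processed signals were put on the log2 scale and set relative to each array's 75th percentile over non-control spots. Outlier-marked spots were dropped before a probe's spots were averaged. Probes above background on at least 3 arrays with at least 2 values per group were tested with limma 3.58.1 in R 4.3.3 (lmFit, eBayes, two-sided, 4 residual degrees of freedom) and Benjamini-Hochberg adjustment over all of them. The fit was checked on simulated data. Single within-array gaps were compared by exact two-sided permutation. Normexp (offset 50) used spot medians, since the files hold no spot means. Plots were drawn with matplotlib 3.10.9.

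Members and rules were chosen with earlier results of these data known. Named were called probes and tested probes in their runs, the 5 largest differences each way, exons with both strands tested, the 3 tested probes of highest mean level (the untested 10343+ ranks among the 3 highest of all members) and those detected in 1 group. The labels describe 3 independent experiments per group but give no litters or surgery days.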

Additional observations from a re-analysis of the deposited data

Results flagged for a closer look

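The probe MM9LINCRNAEXON10343+_P1 stood out in spots that the test left out. With its outlier-marked spots on tMCAO replicates 1 and 3 kept, it differed by 2.04 log2 units between tMCAO and sham. Its level on every tMCAO array was then above that on every sham array. The difference missed the threshold (limma, adjusted p = 0.0853), and was 2.51 on slide 1 and 1.1 on slide 2.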

How the results depend on the processing

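Under the alternatives tried, 0 lincRNA exon probes were lower, and between 0 and 4 higher, against 2 as reported. The count was 1 with no filter on dim probes, with signal on all 6 arrays (which does not test 11561-), with slide as a block and with replicate number as a block (replicate block). It was 4 with a trended robust variance, 0 within slide 1 (an alternative added after seeing the data, with 2 arrays per group), and 0 to 1 when each replicate was left out. With quantile normalization, median centring, normexp, array weights, outlier spots kept or the authors' values it was 2 or 3. The number of higher probes over the whole array moved too, from 547 in the main test. It was 88 without tMCAO replicate 1, 110 without sham replicate 1, 115 within slide 1, 244 with no filter on dim probes and 777 with a trended robust variance. The deviations of same-numbered sham and tMCAO arrays correlated at 0.02, 0.09 and 0.13 across probes, and those of differently numbered arrays at -0.22 to 0.15. With 3 arrays per group, these values cannot settle whether replicate numbers pair the arrays. The difference of 11561- was 0.45 with normexp, under the bound of 1.56-fold given above. Differences near 0 changed sign: 10664+ was at -0.012 with quantile normalization and in the authors' values, at -0.0087 with normexp, and between -0.17 and 0.31 without 1 replicate. That of 10664- was at -0.015 with normexp, -0.081 with array weights, -0.15 within slide 1, and between -0.19 and 0.18 without 1 replicate. The median gap of close-numbered pairs was 0.20 to 0.58 without 1 replicate. Other than the construction of each setting, the cause of these moves was not tested. Detection ranged from 35 probes (all 6 arrays) to 62 (the positive and significant mark).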
